A study of Mus musculus with 2 samples.

Results

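The genes described here are 8 components of the systems that set the tone of blood and lymphatic vessels: the vasoconstrictor peptide precursor Edn1, its receptors Ednra and Ednrb, the angiotensin precursor Agt and the angiotensin receptor Agtr1a, the bradykinin receptor Bdkrb2, the alpha-1A adrenergic receptor Adra1a and the muscarinic M3 receptor Chrm3. They were chosen by name, and all 8 were found among the 23521 genes listed in each table. Cells came from the afferent lymphatic vessels of the submandibular nodes (the superficial cervical lymphatics) of FVB/N Prox1-GFP mice, in which green fluorescent protein reports Prox1, the transcription factor that defines lymphatic endothelium. The aged library pooled 6 mice of 93 weeks and the adult library pooled 6 mice of 12 weeks, both of the same strain and genotype and with no treatment named in the labels. Cells were sorted by flow cytometry and captured in droplets.

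Each age is 1 pooled library, and the cells carry no mark of the mouse, so differences between the ages have no replicate check and no test was made. The aged table also held 6977 barcodes of the adult table (95.5% of the adult cells), at a median of 6294 UMIs (unique molecular identifiers, counted transcripts) against 12434 in the adult table. These were counted once, as adult. That left 6992 aged cells with 83509101 UMIs and 7308 adult cells with 90875406 UMIs (cell medians 11664 and 12088). The aged rows carry no gene names and were named by the adult row order. Over the shared cells, 99.2% of 17144 rows correlated best with the row at the same position.

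Endothelin-1 is released by endothelial cells and acts on ETA receptors (Ednra) of mural cells, which contract, and on ETB receptors (Ednrb), which in endothelium release nitric oxide and clear the peptide. Angiotensinogen is cleaved by renin and then by angiotensin-converting enzyme to angiotensin II, the ligand of the receptor encoded by Agtr1a. All 6 receptors named here can signal through Gq proteins to intracellular calcium, which contracts smooth muscle and, in endothelium, stimulates nitric oxide synthesis. Collecting lymphatics pump lymph by contractions of their muscle layer, and these agonists change the rate and strength of that pumping.

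Classes of cells were taken from fixed markers, and the 8 genes were kept out of the genes used for clustering. Smooth muscle-like cells numbered 204 aged and 255 adult, pericyte-like cells 40 and 64, lymphatic endothelial-like cells 90 and 275, blood endothelial-like cells 422 and 626, and fibroblast-like cells 6214 and 6041. The sort and the dissection can set these numbers. Their names fit their defining genes, but the muscle and pericyte classes overlapped. Myh11, smooth muscle myosin, was at 3972 CPM (UMIs of a gene per 1000000 UMIs of the class) in aged and 3478 CPM in adult smooth muscle-like cells. It was at 198 and 356 CPM in pericyte-like cells, with a UMI in 45% and 59.4% of them, and at 1.33 and 2.16 CPM in fibroblast-like cells. The pericyte marker Rgs5 was at 3075 and 1840.5 CPM in pericyte-like cells. In smooth muscle-like cells Rgs5 was at 797 and 327 CPM, with a UMI in 56.9% and 26.3% of them. Prox1 was found in 100% of lymphatic endothelial-like cells of both libraries, and also in 69.4% of aged and 53.8% of adult blood endothelial-like cells, at 1790 and 1498 CPM against 13824 and 14410 CPM in the lymphatic class. Ptprc, the common leukocyte antigen, was at 0 in the 4 vascular classes of both libraries. The 6 fibroblast markers summed to 4863 and 4471 CPM in aged and adult smooth muscle-like cells and to 5939 and 3241 CPM in pericyte-like cells, against 24180 and 20684 CPM in fibroblast-like cells. Their part in the mural values below was not tested.

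The start of Edn1 is shown as the regulatory sequence of the ligand gene. Its level varied widely among endothelial clusters, from high in an arterial one to no UMI found in a lymphatic one. The 300 bases from 250 before to 50 after the RefSeq start lie at chr13:42301226-42301525 on the plus strand (GRCm38.p6), with capitals marking TTATCT (the motif AGATAA read on the other strand, bound by GATA factors) and TGACTAA, a variant of the AP-1 motif:
Edn1: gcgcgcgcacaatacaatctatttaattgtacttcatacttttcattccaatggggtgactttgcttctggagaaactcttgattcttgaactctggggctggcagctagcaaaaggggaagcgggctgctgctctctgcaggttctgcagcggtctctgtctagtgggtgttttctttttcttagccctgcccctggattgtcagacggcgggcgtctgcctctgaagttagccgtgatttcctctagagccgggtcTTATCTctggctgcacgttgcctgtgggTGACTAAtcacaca
The capitals begin 8 and 36 bases after the start base. AGATAA, on either strand, was found in 11.2% of 32851 RefSeq promoters of this length, and TGACTAA in 2.35%. TGACTAA was added to the search after the sequence had been read. Promoters were at hand for 6 of the 8 genes (not Adra1a and Agtr1a). Of the other motifs searched on both strands, AGAACA (found in 19% of promoters) was present in that of Ednrb, and the CArG box (1.63%) and TGANTCA (7.81%) in none of the 6. A match is a description of letters and not a site.

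Edn1 was highest in blood endothelial-like cells, at 248 CPM (230 to 268, exact 95% Poisson interval) in the aged library and 282 CPM (268 to 298) in the adult library, with a UMI in 36.0% and 38.8% of the cells. Intervals here and below cover counting error only. Within this class the order was the same at both ages: the arterial cluster led by Gja5 and Gkn3 was at 582 CPM aged and 389 CPM adult, the cluster led by Vwf and Olr1 at 253 and 369 CPM, and the capillary cluster led by Rbp7 and Cd300lg, genes of capillary endothelium, at 72.7 and 73.2 CPM. In the aged library the arterial interval (494 to 681 CPM) was clear of the others, while in the adult library those of the arterial and Vwf clusters met (334 to 451 CPM in the arterial one).

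Lymphatic endothelial-like cells held less Edn1, at 38.4 CPM aged and 54.4 CPM adult. A single adult cell gave 54 of the 94 adult UMIs, and without the top cell of each library the levels were 24.5 and 23.5 CPM. None was found in the Ccl21a and Lyve1 cluster of initial-lymphatic genes at either age. That cluster had only 21 aged and 100 adult cells, so this limits detection and not expression. Fibroblast-like cells were at 29.2 CPM (28.1 to 30.5) aged and 25.3 CPM (24.2 to 26.4) adult. The lymphatic endothelial interval held the fibroblast-like one in the aged library (23.1 to 60.04 CPM) and lay above it in the adult library (44.0 to 66.6 CPM). Smooth muscle-like cells were at 7.82 and 7.86 CPM, with 10 of the 11 aged UMIs in 1 cell.

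The fibroblast-like level was an average of unlike clusters. A cluster of 10 aged cells, led by Dcpp1, fitted the fibroblast-like name poorly, as given below with Agtr1a. Over the 25 aged and 21 adult clusters with at least 10 cells, Edn1 ran from 0 to 96.5 CPM in the aged library, with a median of 14.0, and from 0 to 85.0 CPM in the adult library, with a median of 18.6. It was at 63.1 CPM aged and 63.0 CPM adult in the cluster led by Hpse2 and Gabra2, and at 62.5 and 44.7 CPM in that led by Klb. It was at 0.605 and 0.969 CPM in the cluster led by Greb1 and Rxfp1, and at 2.23 and 2.29 CPM in that led by Frem1 and Enpp2. Several clusters were mostly of 1 library, so cluster makeup and age cannot be told apart in the class average.

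**Figure D1:**
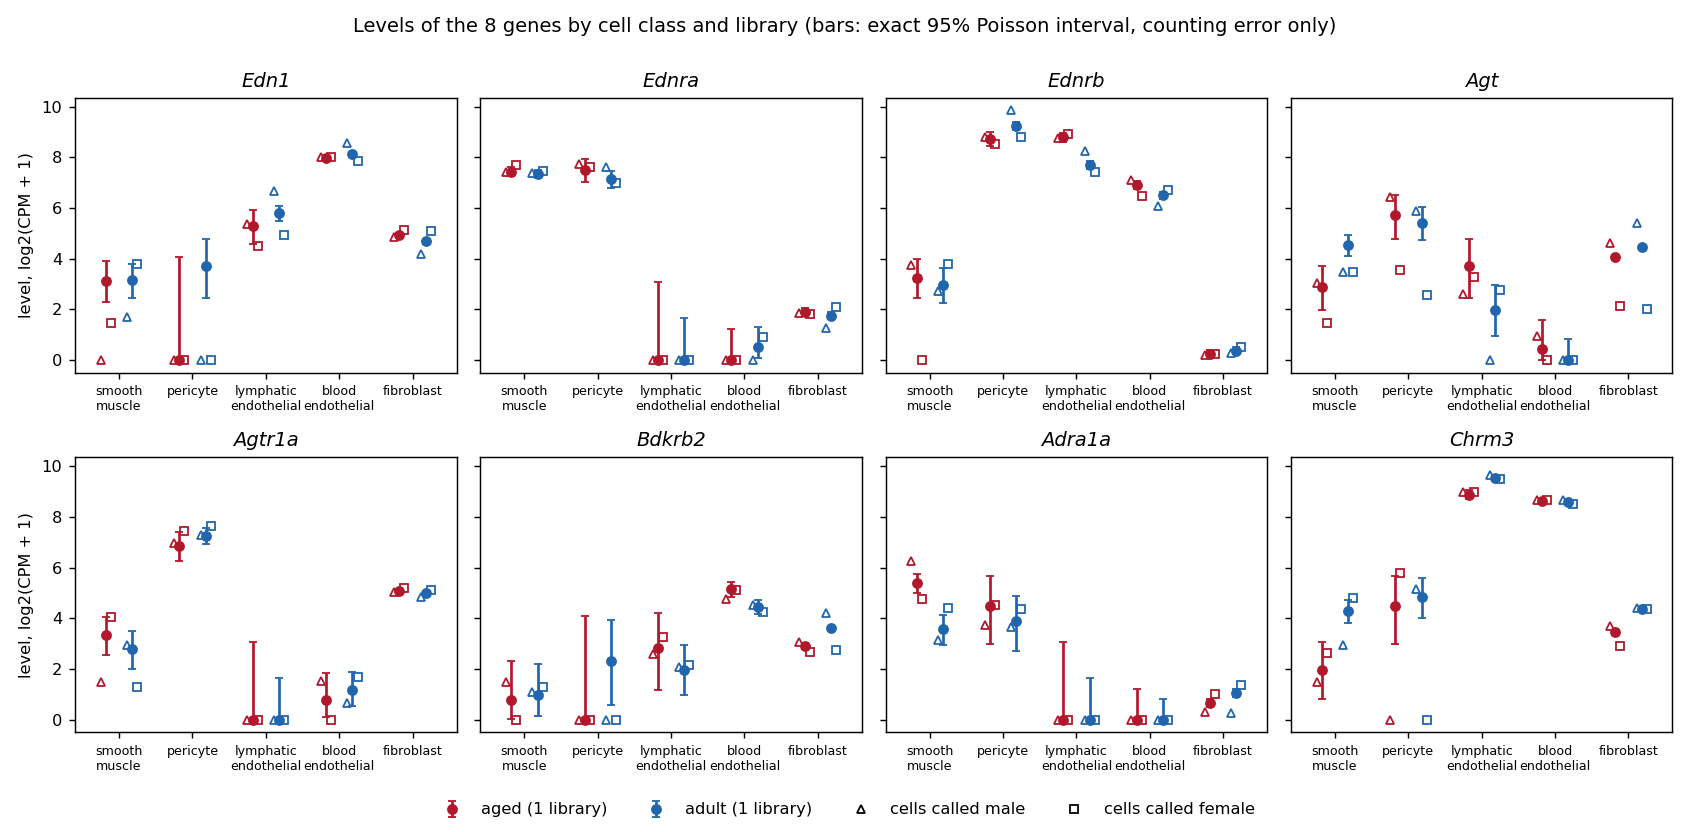
Level of each gene, as log2(CPM + 1), by cell class in the aged library (red, left of each pair) and the adult library (blue, right). Filled points are the class sum with an exact 95% Poisson interval, open triangles and squares cells called male and female from sex-linked transcripts, and Ednra separates mural cells (172 and 163 CPM in smooth muscle) from endothelium (0 CPM in the lymphatic class of both).

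Ednra marked the contractile cells. It was at 172 CPM (151 to 195) in aged and 163 CPM (146 to 182) in adult smooth muscle-like cells, and at 181 CPM (130 to 244) in aged and 139.9 CPM (109 to 177) in adult pericyte-like cells, and these classes did not differ beyond their intervals. A UMI was found in 53.9% of aged and 60.4% of adult smooth muscle-like cells. In lymphatic endothelial-like cells it was found in 0 of 90 aged and 0 of 275 adult cells, which, read as up to 3 cells, allows a share of cells with a UMI of up to 3.33% and 1.09%. That limits detection at this depth and not expression. Blood endothelial-like cells held 0 UMIs in the aged library and 2 in the adult library.

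In fibroblast-like cells Ednra was at 2.73 CPM aged and 2.37 CPM adult, and 1 cluster stood far above the rest. The cluster led by Acsbg1, Fmod and Col11a1, the last a fibrillar collagen chain, held 25.7 CPM aged and 28.4 CPM adult, against medians over clusters of 1.02 and 0.19 CPM. Across fibroblast-like clusters Ednra and Edn1 ran opposite ways, with Pearson correlations of log2(CPM + 1) of -0.68 over 25 aged clusters and -0.89 over 21 adult ones. This was not particular to the pair. Edn1 also ran opposite to Bdkrb2 (-0.74 aged and -0.76 adult), Agt (-0.54 and -0.69) and Adra1a (-0.54 and -0.63), and with Agtr1a (0.68 and 0.73). Ednra was under 5 CPM in 18 of the 25 aged and 16 of the 21 adult clusters. Clusters of a library share its depth and its mice, and the same cells can lie near each other in neighbouring clusters, so these values are descriptions.

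Ednrb had a different map. It was highest in pericyte-like cells, at 426 CPM (347 to 519) aged and 602 CPM (535 to 673) adult, and in lymphatic endothelial-like cells, at 441 CPM (384 to 504) aged and 208 CPM (187 to 231) adult. The order of these classes was not the same in the 2 libraries, and in the aged library their intervals met. Blood endothelial-like cells followed at 118 CPM aged and 89.6 CPM adult. Smooth muscle-like cells were at 8.53 and 6.87 CPM and fibroblast-like cells at 0.191 and 0.295 CPM, so of the mural classes it was the pericyte-like one that carried both endothelin receptors.

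Inside the lymphatic endothelium Ednrb lay mostly in the cluster led by Spp1, Coch and Nts, which held 699 CPM (606 to 803) in 50 aged cells and 374 CPM (333 to 419) in 122 adult cells. The Ccl21a, Reln and Lyve1 cluster was at 22.6 CPM aged and 9.24 CPM adult, and the cluster led by Ptprt and Lcn2 at 119.9 and 141 CPM. In the blood endothelium it was the capillary cluster that held most, at 340.5 CPM (294 to 392) aged and 213 CPM (190 to 238) adult. The arterial cluster, where Edn1 was high, held 29.8 and 8.84 CPM.

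**Figure D2:**
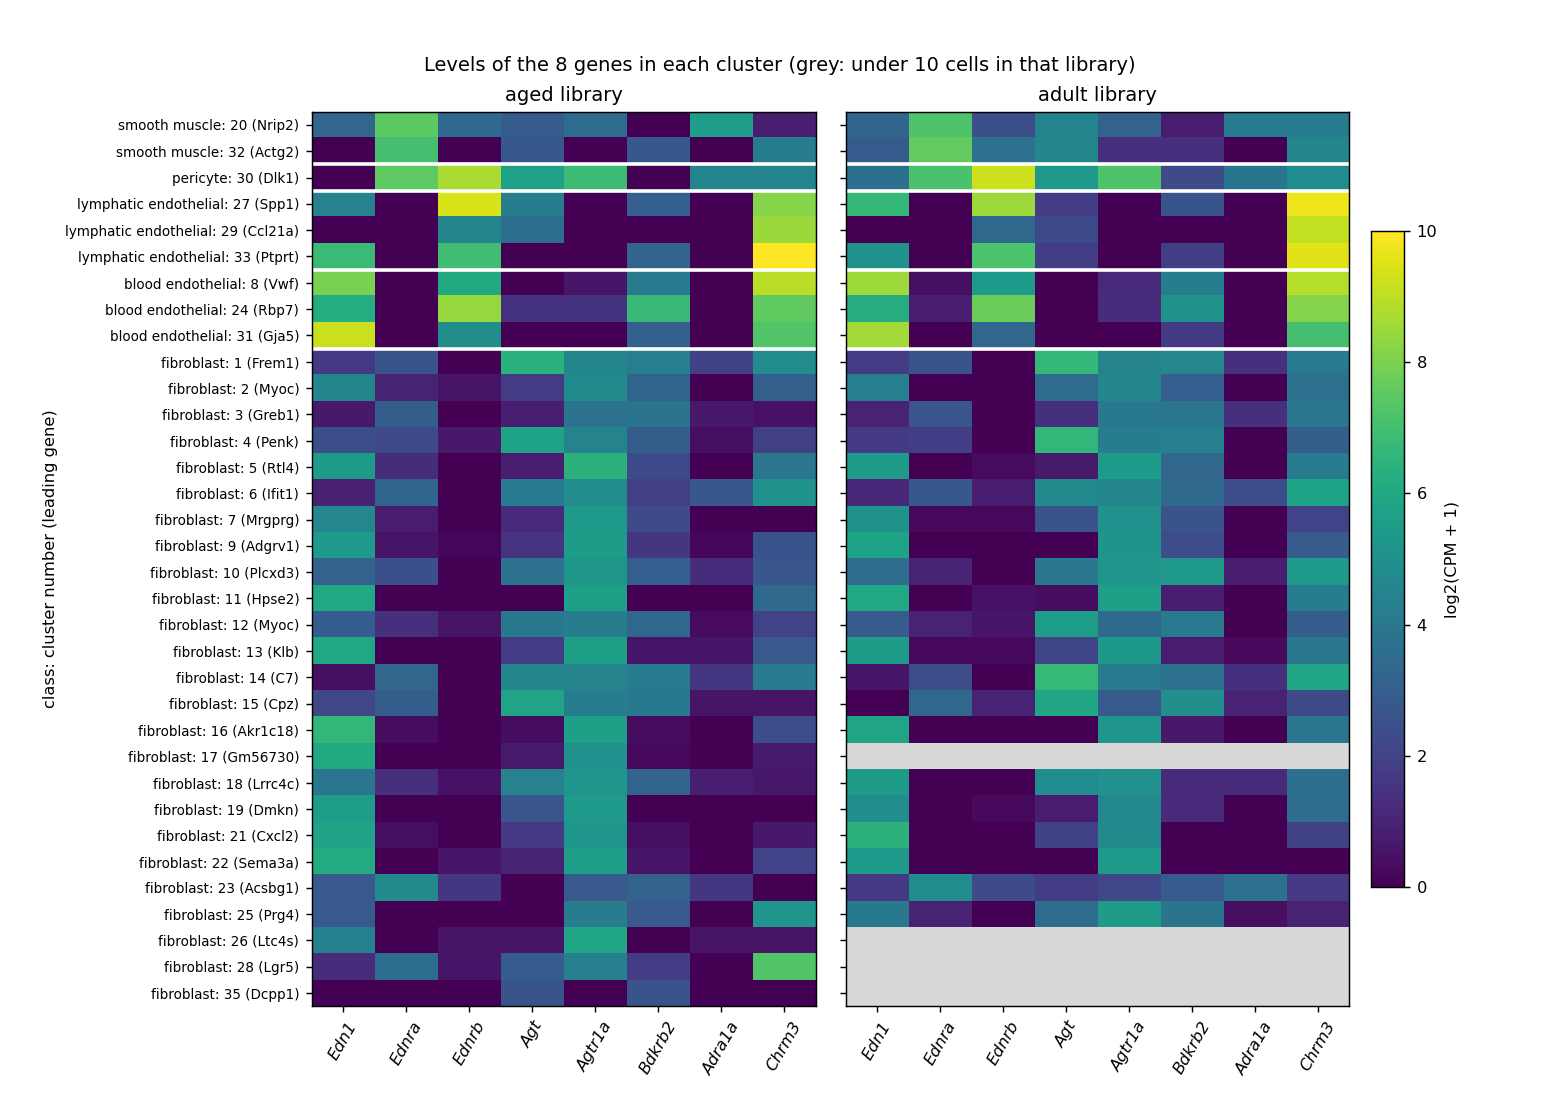
Level of each gene, as log2(CPM + 1), in every cluster of the 5 classes, for the aged library (left) and the adult library (right), with grey for clusters of under 10 cells. Edn1 and Ednrb peak in different blood endothelial clusters (582 CPM of Edn1 in the aged Gja5 cluster and 340.5 CPM of Ednrb in the aged Rbp7 cluster), and Agt, Edn1 and Chrm3 vary widely among fibroblast-like clusters.

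Agt, the angiotensin precursor that circulates mainly from the liver and is also made in connective tissue, was at 51.7 CPM (26.7 to 90.3) in aged and 42.0 CPM (26.0 to 64.1) in adult pericyte-like cells. Fibroblast-like cells were at 15.8 CPM aged and 20.8 CPM adult, with a UMI in 8.13% and 9.30% of cells. Blood endothelial-like cells held 1 UMI in the aged library and none in the adult library. Among fibroblast-like clusters it reached 82.7 CPM aged and 99.6 CPM adult in the cluster led by Frem1 and Enpp2. The cluster led by C7 and Klf5 held 23.1 CPM aged and 102 CPM adult, and the cluster led by Hpse2, where Edn1 was high, 0 and 0.265 CPM.

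Agtr1a, the main mouse receptor for angiotensin II, was highest in pericyte-like cells, at 116 CPM (76.6 to 169) aged and 152 CPM (119.7 to 190.1) adult. Fibroblast-like cells came next at 32.8 CPM (31.6 to 34.1) aged and 30.9 CPM (29.7 to 32.1) adult, with a UMI in 27.1% and 27.4% of cells, against 0.474% and 0.479% of blood endothelial-like cells. With cells thinned to 3000 UMIs, and those with fewer left out, the shares were 7.87% and 7.70%, against 0% and 0.331%. Smooth muscle-like cells were at 9.24 and 5.89 CPM, and lymphatic endothelial-like cells held no UMI in either library. Over fibroblast-like clusters the aged values ran from 0 to 85.0 CPM, with the 0 in a cluster of 10 cells led by Dcpp1 whose median was 40436 UMIs, and the adult values from 3.39 to 48.9 CPM. Agtr1a was thus spread over nearly all fibroblast-like clusters, with 18 of 25 aged and 15 of 21 adult clusters at 20 CPM or more.

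Bdkrb2, the constitutive bradykinin receptor, was highest in blood endothelial-like cells, at 34.3 CPM (27.7 to 41.9) aged and 21.0 CPM (17.2 to 25.6) adult. The capillary cluster held 106 CPM (81.2 to 137) in 89 aged cells and 33.8 CPM (25.0 to 44.7) in 196 adult cells. This difference was not set against all genes of that cluster. Over the whole class a UMI was found in 9.95% of aged and 9.27% of adult cells, under the 10% asked of a measured gene. Other blood endothelial clusters were at 17.0 and 7.46 CPM aged and 17.7 and 2.21 CPM adult. Fibroblast-like cells were at 6.49 CPM aged and 11.4 CPM adult. Each other class held at most 5 UMIs per library.

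Adra1a, the receptor through which noradrenaline contracts many vessels, was highest in the mural classes. Smooth muscle-like cells held 41.2 CPM (31.3 to 53.3) aged and 10.8 CPM (6.77 to 16.4) adult. A UMI was found in 9.31% of aged and 6.67% of adult cells, against 0.515% and 0.679% of fibroblast-like cells, which are deeper. All of it lay in the cluster led by Nrip2, Pln and Myh11 (47.0 CPM aged, 15.9 CPM adult). The other smooth muscle cluster, led by Actg2 and Cnn1, held none in 26 aged and 75 adult cells. Pericyte-like cells were at 21.5 CPM (6.99 to 50.2) aged and 14.0 CPM (5.62 to 28.8) adult on 5 and 7 UMIs, under the muscle level in the aged library and over it in the adult one, with intervals that met in both. No endothelial-like cell of either class or library held a UMI.

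Chrm3, the M3 receptor, was highest in the endothelial classes. It was at 471 CPM (413 to 536) in aged and 736 CPM (696 to 777) in adult lymphatic endothelial-like cells, and at 399.5 CPM (376 to 424) in aged and 383 CPM (366 to 401) in adult blood endothelial-like cells. A UMI was found in 55.6% of aged and 77.5% of adult lymphatic cells and in 60.4% and 61.3% of blood endothelial cells, against 1.47% and 3.53% of smooth muscle-like cells. After thinning to 3000 UMIs, which left out cells with fewer, the lymphatic shares were 48.2% of 83 aged and 67.2% of 253 adult cells. The 3 lymphatic clusters held it at 291 to 1002 CPM in the aged library and 538 to 859 CPM in the adult library. Among blood endothelial clusters it was highest in the Vwf cluster, at 494 and 472 CPM, and lowest in the arterial one, at 157 and 130.4 CPM.

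Pericyte-like cells held Chrm3 at 21.5 CPM aged and 28.0 CPM adult, with all UMIs in 1 aged and 3 adult cells. Fibroblast-like cells held it at 9.92 CPM aged and 19.4 CPM adult. One cluster, led by Lgr5, Stk32a and Tshr and made of 163 aged and 4 adult cells, reached 157 CPM (140.2 to 174), with a UMI in 41.1% of its aged cells. The next highest aged cluster held 36.1 CPM on 11 cells.

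Set against all measured genes, few of these levels differed between the ages by 2-fold. A gene was measured in a class where at least 10% of cells of 1 library held a UMI and both libraries together held 50 UMIs. In lymphatic endothelial-like cells 1 of the 3 measured genes was 2-fold or more higher in the aged library (Ednrb), against 1.6% of 6006 genes there, and none was 2-fold or more lower, against 3.23%. In smooth muscle-like cells the 1 measured gene (Ednra) passed neither way, against 0.68% of 7348 genes higher and 3.02% lower. In pericyte-like cells 0 of 3 passed, against 2.15% of 2700 genes higher and 4.85% lower. In blood endothelial-like cells 0 of 3 passed, against 0.872% of 7225 genes higher and 1.49% lower. In fibroblast-like cells 0 of 2 passed, against 0.539% of 8726 genes higher and 0.917% lower.

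Ednrb in lymphatic endothelial-like cells had a log2 ratio of aged over adult CPM of 1.08 (0.83 to 1.33, exact interval). It was 0.52 in cells called male and 1.51 in cells called female. The ratio fell under 2-fold where the lymphatic clusters were weighted equally (0.68), where cells were gated by markers without clustering (0.56) and with all cells as deposited (0.48). It was 1.24 without the cell that held most UMIs in each library, of which the adult one held 71 of 360. Chrm3 in the same cells ran the other way at -0.64 (-0.85 to -0.44), with -0.69 in male and -0.53 in female cells. The Chrm3 ratio moved out of that interval with marker gates (-0.19), clusters weighted equally (-0.38) and all cells as deposited (-0.36).

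The log2 ratio of Adra1a in smooth muscle-like cells, 1.84 (1.20 to 2.71), rested largely on 1 cell. A single aged cell called male, with 9049 UMIs in all, held 29 of the 58 aged Adra1a UMIs. The other aged cells held at most 6 each, and the adult cells at most 3. Without the top cell of each library the levels were 20.7 CPM aged and 9.37 CPM adult, and the log2 ratio was 1.07. Cells with a UMI numbered 19 of 204 aged and 17 of 255 adult. Male cells alone gave 3.11 with that cell, and 1.48 without it. Female cells gave 0.35 (-0.78 to 1.53) on 15 and 14 UMIs. Adra1a did not reach 10% of cells and was not among the measured genes.

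**Figure D3:**
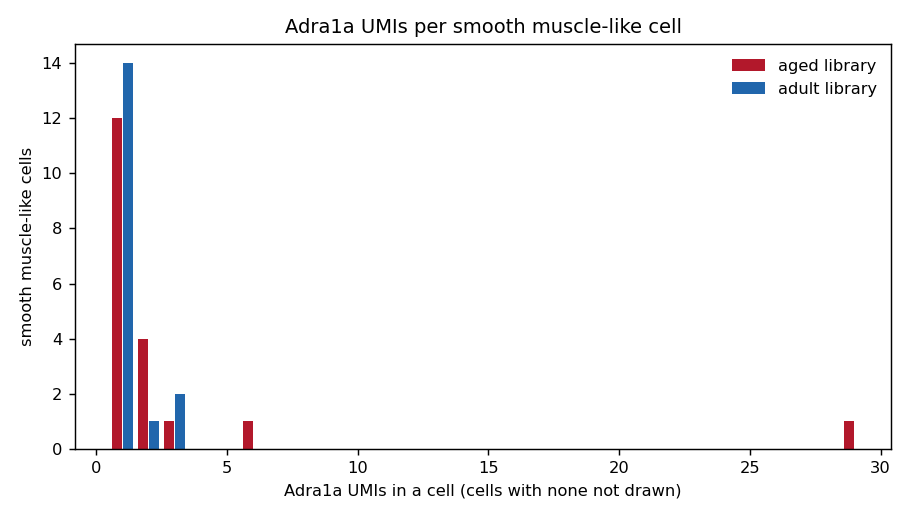
Number of smooth muscle-like cells (vertical axis) by the Adra1a UMIs they held (horizontal axis, cells with none not drawn), aged library in red and adult library in blue. Most positive cells held 1 UMI (12 aged, 14 adult), and 1 aged cell held 29.

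Agt in smooth muscle-like cells was at 6.39 CPM on 9 aged UMIs and 22.1 CPM on 45 adult UMIs, a log2 ratio of -1.64 (-3.01 to -0.74). It moved to -0.063 with marker gates and to -0.68 without cells that held a marker of another class.

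The other ratios were smaller. Ednra was at 0.076 (-0.17 to 0.32) in smooth muscle-like and 0.37 (-0.22 to 0.94) in pericyte-like cells. Ednrb was at -0.50 (-0.84 to -0.16) in pericyte-like and 0.40 (0.19 to 0.61) in blood endothelial-like cells. Agtr1a was at -0.38 (-1.08 to 0.27) in pericyte-like cells. With marker gates the pericyte-like ratios moved to -0.91 for Ednra, -1.32 for Ednrb and -1.67 for Agtr1a. These ratios thus depend on how the pericyte-like cells are named. Edn1 was at -0.19 (-0.32 to -0.053) in blood endothelial-like and 0.20 (0.12 to 0.30) in fibroblast-like cells. Of the receptors in fibroblast-like cells, Chrm3 was at -0.90 (-1.09 to -0.84), Bdkrb2 at -0.72 (-0.97 to -0.65) and Agtr1a at 0.085 (0.0079 to 0.17). Chrm3 was at 0.060 (-0.048 to 0.17) in blood endothelial-like cells. In the 21 fibroblast-like clusters with at least 10 cells of each library, Chrm3 was lower in the aged library in 18, Agt in 16 and Bdkrb2 in 15, and Agtr1a was higher in 19. Edn1 was higher in 10 and lower in 11, Ednra in 13 and 5, Adra1a in 8 and 5, and Ednrb in 5 and 9. Clusters of 1 library are not replicates, and these counts were not set against all genes. The median log2 ratio over these clusters was -1.24 for Chrm3 and 0.31 for Agtr1a.

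**Figure D4:**
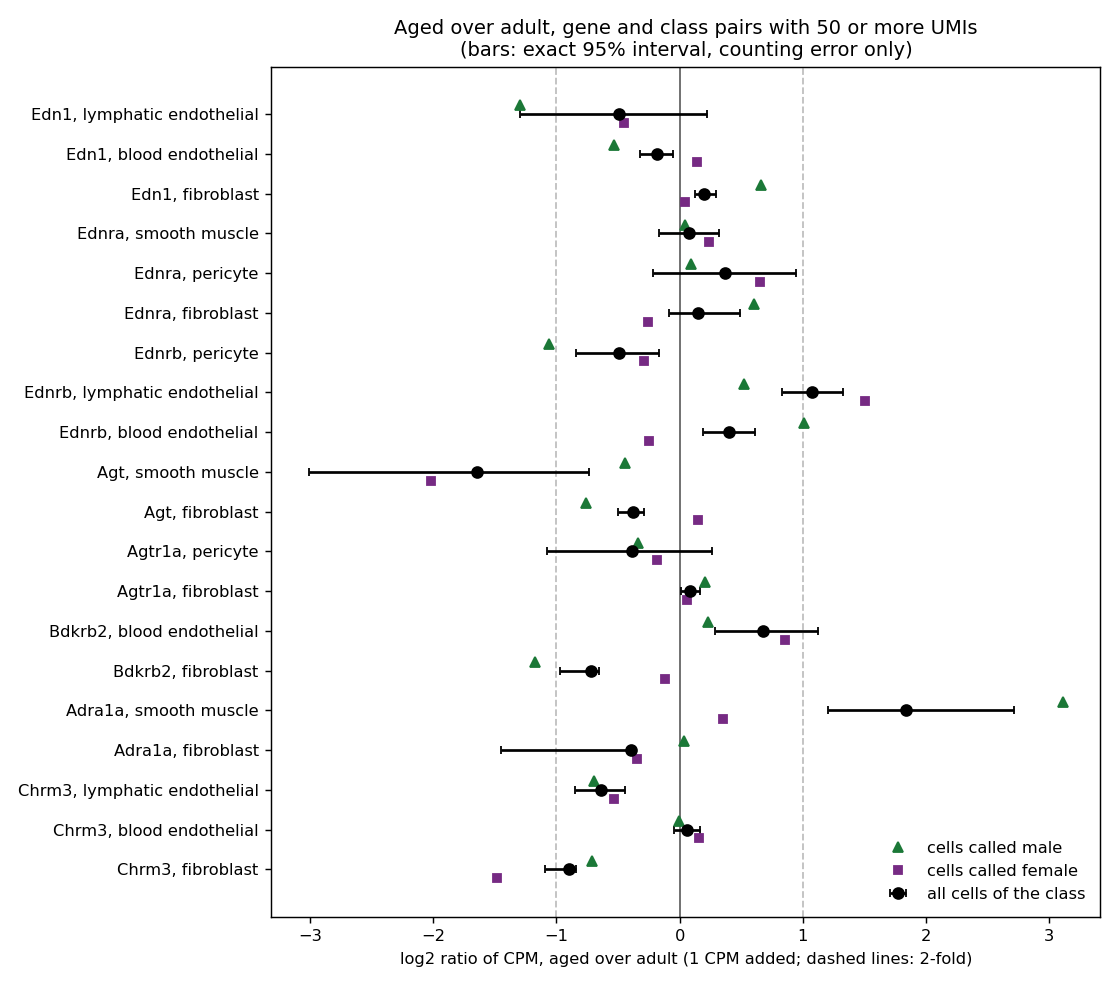
Log2 ratio of CPM, aged over adult, for the 20 gene and class pairs with 50 or more UMIs, with exact 95% intervals for counting error (black points), and the ratio in cells called male (triangles) and female (squares). Ednrb in lymphatic endothelial-like cells (1.08) and Adra1a (1.84) and Agt (-1.64) in smooth muscle-like cells lie outside the dashed 2-fold lines.

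Cells of both sexes were present in both libraries, though the labels give no sex. Cells called male from Y-linked transcripts numbered 3482 aged and 2840 adult, and cells called female from Xist and Tsix 2574 and 3524. Agt in fibroblast-like cells was split by this call more than by age. In the aged library male cells held 23.9 CPM on 977 UMIs and female cells 3.44 CPM on 100 UMIs. In the adult library male cells held 41.2 CPM on 1346 UMIs and female cells 3.00 CPM on 122 UMIs. The log2 ratio of male over female was 2.49 in the aged and 3.40 in the adult library, with 1 CPM added (exact intervals without it, 2.50 to 3.11 and 3.51 to 4.06). Of 8726 measured genes, 0.665% in the aged and 0.504% in the adult library were 2-fold or more higher in male fibroblast-like cells, and 0.756% and 0.802% were 2-fold or more higher in female ones. The 2 measured members, Edn1 and Agtr1a, passed in neither direction, and Agt fell short of the 10% of cells.

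The split was present within clusters. Male cells held more Agt in 8 of 8 aged and 11 of 11 adult fibroblast-like clusters with at least 10 UMIs. In the Frem1 cluster male cells held 129.9 CPM and female cells 30.5 CPM in the aged library, and 232 and 18.3 CPM in the adult library. In the C7 and Klf5 cluster male cells held 31.1 CPM aged and 121 CPM adult, while no female cell of either library held a UMI. Pericyte-like cells showed the same direction on few counts: 7 male and 1 female UMIs in the aged library, and 10 and 1 in the adult library. The number of mice of each sex is not given in the labels, so a difference between individual mice cannot be told apart from sex.

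Edn1 in fibroblast-like cells ran the other way by a smaller amount. Aged male and female cells held 27.9 and 34.2 CPM, with a log2 ratio of -0.28 (-0.42 to -0.17), and adult ones 17.3 and 33.2 CPM, with a ratio of -0.90 (-1.09 to -0.80). Within clusters, female cells held more in 10 of 10 aged and 9 of 10 adult clusters. Bdkrb2 was higher in male cells of 6 of 8 aged and 9 of 11 adult clusters, at 7.32 against 5.29 CPM over all aged and 17.7 against 5.81 CPM over all adult male and female fibroblast-like cells. Of the 925 adult UMIs of Bdkrb2, 264 came from male cells of the cluster led by Plcxd3. Clusters of 1 library share its mice and are not replicates. The counts of clusters by sex for Agt, Edn1 and Bdkrb2 were not set against all genes.

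**Figure D5:**
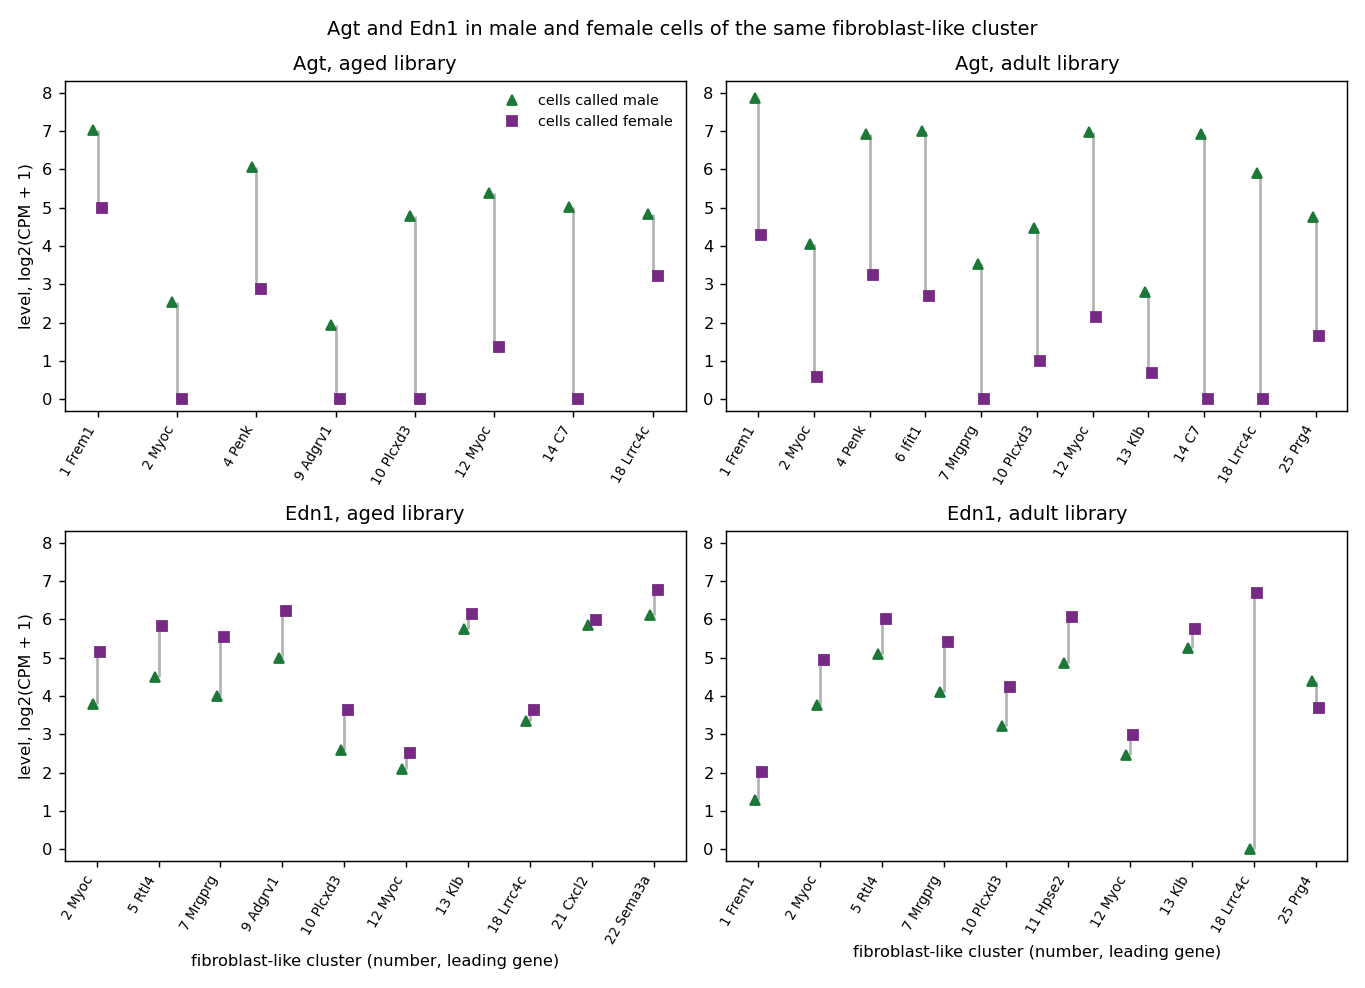
Level of Agt (top) and Edn1 (bottom), as log2(CPM + 1), in cells called male (triangles) and female (squares) of the same fibroblast-like cluster, aged library left and adult library right, for clusters with at least 10 UMIs and 20 cells of each sex. Agt is higher in male cells in 8 of 8 aged and 11 of 11 adult clusters, and Edn1 higher in female cells in 10 of 10 and 9 of 10.

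The genes whose levels were most like each member over 19 clusters in both libraries (38 points that share libraries and depth, 13372 genes compared) were described by Pearson correlation of log2(CPM + 1). Edn1 ran closest to Tek, the angiopoietin receptor (0.93), Calcrl, the calcitonin receptor-like receptor (0.90), and Limch1 (0.89). Ednra ran with Daam2 (0.92) and Crispld2 (0.90). Adra1a ran with the Notch target Heyl and the calcium channel subunit Cacnb2 (0.87 each). Ednrb ran with Rasgrp3 (0.98), Klhl3 and the transcription factor Tal1. Chrm3 ran with Ptpn12 (0.93), A730081D07Rik and the Src family kinase Yes1. Agtr1a ran with C1qtnf1 (0.95), Antxr2 and Arhgap20. The likeness was lower for Agt, with Dio3os (0.84), Shisal1 and Nmb, and for Bdkrb2, with Exoc3l4 (0.79), Mcl1 and Gask1b.

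Other genes of the same systems were taken from 7 lists of 66 genes, 64 of them in the tables. Of those measured, 1 of 25 was 2-fold or more higher in the aged library and 1 lower in smooth muscle-like cells, 0 of 19 higher and 3 lower in pericyte-like cells, 1 of 19 higher and 0 lower in lymphatic endothelial-like cells, 1 of 23 higher and 1 lower in blood endothelial-like cells, and 0 of 21 either way in fibroblast-like cells. Of all measured genes, 0.68% were higher and 3.02% lower in smooth muscle-like, 2.15% and 4.85% in pericyte-like, 1.6% and 3.23% in lymphatic endothelial-like, 0.872% and 1.49% in blood endothelial-like, and 0.539% and 0.917% in fibroblast-like cells. The 3 lower in pericyte-like cells are 15.8% of the listed genes measured there, on 40 aged and 64 adult cells. In smooth muscle-like cells the vasopressin receptor Avpr1a was higher, with 193 CPM in male and 116 CPM in female aged cells against 67.6 and 64.6 CPM in adult ones, a log2 ratio over all cells of 1.41. The serotonin receptor Htr2a stood there at -1.69 on 8 aged and 42 adult UMIs. The cluster led by Actg2 and Cnn1 gave 26 of the 204 aged and 75 of the 255 adult smooth muscle-like cells. The part of this makeup in the Avpr1a and Htr2a ratios was not tested. In pericyte-like cells the alpha-2A adrenergic receptor Adra2a (-1.46), the calcitonin receptor partner Ramp1 (-2.47) and the Gq inhibitor Rgs2 (-1.59) were lower. The Ramp1 ratio rested on 4 aged and 50 adult UMIs. In smooth muscle-like cells, which overlapped with the pericyte-like class, Ramp1 was at 241 CPM aged and 235 CPM adult. The part of this overlap in the Ramp1 ratio was not tested. Marker gates moved the pericyte-like ratios of Ednra, Ednrb and Agtr1a, and the listed genes were not tested with them. For Rgs2, 1 adult pericyte-like cell held 34 of the 105 adult UMIs, the log2 ratio without the top cell of each library was -1.43, and a UMI was found in 22.5% of aged and 21.9% of adult cells. In lymphatic endothelial-like cells Rgs2 stood at 1.20 on 21 aged and 31 adult UMIs. In blood endothelial-like cells the receptor kinase Grk5, which desensitises such receptors, was higher at 1.09, with 478 CPM in male and 518 CPM in female aged cells against 206 and 229.9 CPM in adult ones. The apelin receptor Aplnr stood at -1.11 there. Some of these genes passed the filter of 10% of cells only in the library where they were high, which favours that direction. They were Htr2a (3.92% of aged and 10.2% of adult cells), Aplnr (9.48% and 16.6%) and Rgs2 in the lymphatic class (13.3% and 8.36%).

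The renin-angiotensin list had 3 to 5 measured genes per class and none past 2-fold, with median log2 ratios of -0.19 in smooth muscle-like, -0.054 in pericyte-like, 0.14 in lymphatic endothelial-like, -0.021 in blood endothelial-like and -0.14 in fibroblast-like cells. The Gq and calcium list had 10 to 13 measured genes, with medians of -0.093, -0.12, 0.0075, -0.13 and -0.076 in the same order. The list of other vasoactive receptors had 3 to 6, with medians of 0.059, 0.34, 0.40, 0.15 and 0.019. In pericyte-like, lymphatic endothelial-like and fibroblast-like cells these rest on 3 genes each. Over all measured genes the medians were -0.049, -0.014, 0.037, 0.028 and -0.046. The adrenergic, endothelin-processing and kallikrein-kinin lists had at most 1 measured gene per class. The muscarinic list had none. Its highest member, Chrm2, was at 26.3 CPM aged and 27.2 CPM adult in lymphatic endothelial-like cells, with a UMI in 8.89% and 7.27% of cells.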

How the data were processed

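Each deposited value is a natural log, ln(1 + UMIs per 10000 UMIs of the cell), read from the values because every cell summed to 10000 once un-logged. Seurat 5.0.3 and the builds GRCm39 and mm10, with no role, are named per the submitters' processing notes. For the aligner and the cell filters nothing is given in the sources used. Every cell's values were divided by its lowest un-logged one, and 100% came out whole within 0.01, which returned the UMIs.

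The 6992 aged and 7308 adult cells (medians of 11664 and 12088 UMIs) were clustered with scikit-learn 1.9.0 and igraph 0.11.9 from 2000 variable genes, 30 principal components and 15 neighbours by the Leiden method at a resolution of 2, without the members, the listed genes and mitochondrial, ribosomal, haemoglobin, immediate early and sex-linked genes. Of 35 clusters, each was named by the marker list with the highest mean log2 fold, from 1 upward with 3 markers in 10% of cells, or fibroblast-like where 3 fibroblast markers were in 50% of cells. A cluster of 22 aged and 47 adult cells (0.315% and 0.643%) with more fibroblast markers than pericyte markers in 50% of its cells was kept apart. The naming thresholds were set after seeing the data, and the classes need not match the authors'. Scrublet (scanpy 1.11.5) called 0 doublets in both libraries, so it did not work here and doublets were not removed.

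UMIs were summed per class and library (CPM). Log2 ratios were taken with 1 CPM added and are given from 50 UMIs upward. Their exact conditional binomial 95% intervals leave that CPM out, so the ratio of a low gene can lie outside them. Shares above 0 carry exact Clopper-Pearson limits, and a count of 0 is read as up to 3 counts. All p-values were left out, since each age is 1 library. The ratio was checked on simulated counts. The members and lists were chosen with earlier results of these data known. Named genes were the 8 members, listed genes past 2-fold and the 3 genes most like each member (200 or more UMIs, clusters of 50 or more cells in each library). Where fewer than 3 are given, the remainder is not reported here. Promoter sequences are those of RefSeq for GRCm38.p6. Alternatives changed the barcodes kept, the clustering, the added CPM, the weighting, the sex and the cells with foreign markers.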

Additional observations from a re-analysis of the deposited data

Results flagged for a closer look

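In 4 pairs of gene and class the aged over adult log2 ratio had opposite signs in cells called male and cells called female, with at least 1 of the 2 intervals on 1 side of 0. The differences between the sexes were not tested. In blood endothelial-like cells Edn1 was at -0.53 in male and 0.14 in female cells. The male levels were 259 CPM aged and 375 CPM adult, and the female levels 256 and 231 CPM. In the same class Ednrb was at 1.01 in male and -0.25 in female cells, from 137 CPM aged and 67.2 CPM adult in male cells, and 88.4 and 105 CPM in female cells. In fibroblast-like cells Ednra was at 0.61 in male and -0.25 in female cells, at levels of 2.62 CPM aged and 1.38 CPM adult in male cells, and 2.54 and 3.23 CPM in female cells. Agt was at -0.76 in male and 0.15 in female fibroblast-like cells, so the aged level was lower in the male cells, which held most of it.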

How the results depend on the processing

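No paired analysis was possible because each age is 1 library with no replicate number. Of 214 ratios of the 20 pairs under 11 alternatives, 69 moved beyond the counting interval and 16 had the opposite sign. None of the 3 ratios past 2-fold in the main setting changed direction. Edn1 in lymphatic endothelial-like cells, at -0.49 (-1.30 to 0.22), moved to 1.85 with clusters at a Leiden resolution of 1, past 2-fold the other way. Adra1a in smooth muscle-like cells moved from 1.84 to 3.11 with male cells only, 0.35 with female cells only and 1.07 without the top cell of each library. Agt there moved from -1.64 to -0.44 with male cells, -0.68 without cells holding a marker of another class, -0.063 with marker gates and -0.67 with all cells as deposited. Ednrb in lymphatic endothelial-like cells moved from 1.08 to 1.51 with female cells, 0.52 with male cells, 1.35 without foreign markers, 0.56 with gates, 0.68 with clusters weighted equally and 0.48 as deposited. In pericyte-like cells marker gates moved Ednra from 0.37 to -0.91, Ednrb from -0.50 to -1.32 and Agtr1a from -0.38 to -1.67. The cause was not tested. Male over female Agt in fibroblast-like cells moved to 1.34 in the aged library and 1.98 in the adult one with 10 CPM added, and in the adult one to 3.73 with 0.1 CPM added and 3.96 with clusters weighted equally.

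Genes 2-fold or more higher and lower numbered 592 and 1691 in smooth muscle-like, 1869 and 4121 in pericyte-like, 1398 and 2726 in lymphatic endothelial-like, 439 and 800 in blood endothelial-like and 109 and 212 in fibroblast-like cells with no filter on low counts, since genes with a few UMIs then enter. With 10 CPM added they numbered 18 and 101, 54 and 106, 39 and 47, and 24 and 31 in the smooth muscle-like, lymphatic endothelial-like, blood endothelial-like and fibroblast-like cells. The values above are those of 50 and 222, 58 and 131, 96 and 194, 63 and 108, and 47 and 80. The alternative without doublets gave no value, since none were called, and the alternatives without a top cell and those of the sex ratios were chosen after seeing the data. Depth limits the pericyte-like and lymphatic endothelial-like classes most, where a count of 0 in the aged library allows up to 12.9 and 6.07 CPM.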

Other observations

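The small cluster that was kept apart, led by Egln3 and Adgrl3, held Chrm3 at 68.3 CPM aged and 84.3 CPM adult, Ednra at 12.4 and 66.8 CPM, and Edn1 at 37.3 and 0 CPM, on 22 aged and 47 adult cells. In the lymphatic endothelial cluster led by Spp1, Ednrb was at 699 CPM in the aged library, against 374 CPM in the adult library, and Chrm3 at 291 CPM, against 859 CPM. These sums rest on 50 aged and 122 adult cells. Adra1a in fibroblast-like cells, though near 1 CPM, came mostly from female cells: 10 male and 30 female UMIs in the aged library, and 7 and 64 in the adult library. Of the 87 adult UMIs, 15 lay in 1 cell and 32 in the 3 highest cells. In the adult library 30 female UMIs lay in the cluster led by Ifit1, of 446 female and 97 male cells. Another 15 lay in the cluster led by Acsbg1, of 137 female and 50 male cells. The part of these cells and clusters in the split was not tested.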
